A study of Macaca mulatta with 16 samples.

Results

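The regions described here are the short stretches of open chromatin that were found in every library of the series. Overlap of 1 bp or more joined the peaks of all 16 libraries into 55449 regions, and a region counts as open wherever a library has a peak inside it. Members had a peak in all 16 libraries and a merged width of at most 1200 bp. There were 4239 of them, which was 7.64% of all regions and 17.4% of the 24333 regions open in all libraries. The other 20094 regions open in all libraries were wider than the limit and serve as the comparison below. Members were thus chosen by measured values, their presence in every list and their merged width, so both are given as descriptions with no test.

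ATAC-seq marks open chromatin by letting a transposase cut DNA that is not packed away, and a peak is a stretch where cuts pile up. The summit is the base of strongest signal in a peak. In general, short open sites are places where a promoter, an enhancer or an insulator is held free of nucleosomes by bound proteins, and sites open in many cell types often lie at promoters of widely used genes or at insulators. A naive T cell has yet to encounter its antigen, a memory T cell comes from a lineage that already did so, and the CD4 and CD8 lineages are the helper and the cytotoxic branch. Gene positions and sequence of the build used, rheMac10, were not used here, so regions are named by position (1-based) and neither the genes near them nor the markers of the sorted cells were looked up.

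The cells came from peripheral blood of 2 rhesus macaques that the series describes as healthy. At each of 2 times 4 populations were sorted, naive CD4+, memory CD4+, naive CD8+ and memory CD8+ T cells, and each library was made from 10000 cells with 11 to 15 cycles of amplification. The first time was before treatment (labelled none) and the second after 2-hydroxypropyl-beta-cyclodextrin (a cyclic sugar able to take up cholesterol), given under the skin as 15% (w/w) Kleptose HBP at 1 ml/kg each day for up to 120 days. This gave 8 groups of 2 libraries, 1 per animal. No untreated animals were among the samples, so time and treatment cannot be told apart. No source used here gives the markers of the sort or the ages of the animals.

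Lists held 36307 to 42034 peaks each (median 40452), 1 list per library, and the read depth behind them was unknown. Each peak carries an area score, the authors' measure of its size, and the lowest score in any list was 200. The naive CD8+ library of animal 1 taken before treatment had the shortest list. Regions of at most 1200 bp were mostly not shared by all libraries. Of 26874 such regions 15.8% were open in all 16 and 5503 were open in 1, against 70.3% of the 28575 wider regions open in all. There were 814 narrow regions that missed a single library, and the missing library was most often naive CD8+ before in animal 1, at 198 regions or 24.3%. Memory CD8+ before was the missing library in 14.1% of them in animal 1 and in 14.5% in animal 2. Within a list the area scores of these 814 had a median percentile of 21.1 (quartiles 16.2 and 27.5), and those of the members had 34.3 (quartiles 26.5 and 42.4). A score under 300 in at least 1 library was found for 1238 members (29.2%) and for 4.51% of the wider regions, so many members lay near the lower end of what was listed.

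Members were 307 to 1200 bp wide after merging, with a median of 937 bp and quartiles of 789 and 1066 bp. At the limit, chr10:32695350-32696549 and chr19:3037569-3038768 were 1200 bp wide, with median percentiles of 36.6 and 31.4. Just outside it, chr1:187034743-187035943 and chr1:198087410-198088610 were 1201 bp wide, with 63.9 and 51.9. Members held 2 or more peaks in some library in 11 cases (0.259%), against 29.0% of the wider regions. They lay on every chromosome listed, the 20 autosomes and X. Their share of the regions open in all libraries ran from 13.3% on chromosome 20 to 21.1% on chromosome 18, with 480 members on chromosome 1 and 103 on X. The nearest other region was a median of 5454 bp away, the nearest region open in all libraries 10736 bp (9130 bp for the wider regions) and the nearest other member 85612 bp. Within 10 kb of another member lay 511 members (12.1%).

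The members were weak in every library. The median percentile of the area score in a list ran from 29.2 to 38.1 over the 16 libraries, while the wider regions had medians of 71.5 to 75.3. Between 6.28% and 14.7% of members scored above the middle of a list. Median peak widths were 596 to 733 bp, against 1715 to 2164 bp for the wider regions. Area score per base of peak was 0.863 to 1.13 for members and 1.46 to 1.80 for wider regions, and the -log10 p at the summit was 4.04 to 4.50 against 5.44 to 6.20. Across members, merged width and the rank of the area score had a Spearman rho of 0.563, and width and area per base had 0.200. These are descriptions over regions that share the same libraries, and area grows with width by construction. The lowest median percentile (29.2) and the lowest median width (596 bp) both belonged to naive CD8+ before in animal 1.

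**Figure D1:**
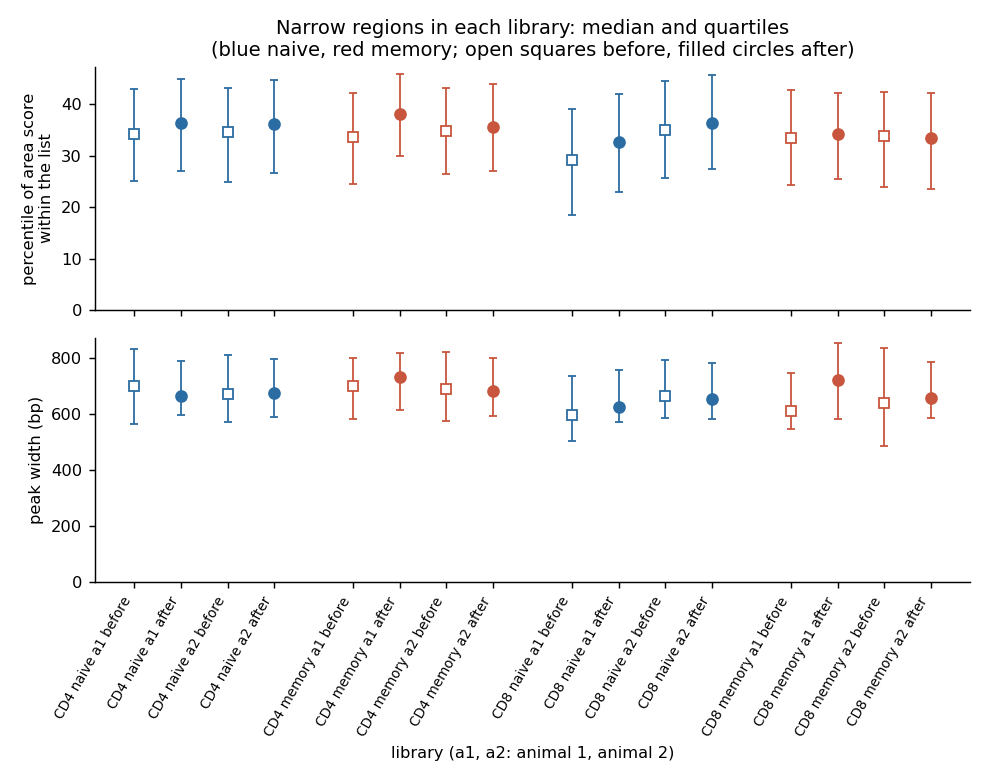
Median (points) and quartiles (bars) over the 4239 narrow regions in each of 16 libraries, for the percentile of the area score within the list (upper panel) and the peak width in bp (lower panel). Medians ran from 29.2 to 38.1 in percentile and from 596 to 733 bp in width, and the bars of all libraries overlap.

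The strongest members reached the upper part of the lists. By median rank the first was chr16:54369612-54370791, with percentiles from 49.1 over a median of 72.5 to 88.1. It was followed by chr16:18661792-18662959 (65.0, 70.1 and 74.98) and by chr1:207985958-207987048 (61.0, 66.5 and 69.9). The next 2 were chr20:60038098-60039263 (median 67.0) and chr14:18510697-18511646 (median 66.4). The last of these kept its summit within 6 bp over all libraries. The narrowest member, chr11:120519419-120519725, was 307 bp after merging and 231 to 284 bp in single libraries, at a median percentile of 18.8. Next came chr1:223243258-223243579 (322 bp, percentile 24.6), chrX:7996726-7997077 (352 bp, 19.6), chr6:42480495-42480899 (405 bp, 41.4) and chr11:104598213-104598623 (411 bp, 15.2). The narrowest 5 therefore ranged from a median percentile of 15.2 to 41.4.

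Edges of the members' peaks did not lie at any distance from the summit but in groups. Each of 67824 peaks has an edge on either side of its summit. The distances gathered around 132.5, 302.5, 462.5 and 632.5 bp (midpoints of 5 bp bins after smoothing), which is steps of 170, 160 and 170 bp, with lows between them at 202.5, 392.5 and 577.5 bp. The first group lay at 127.5 to 137.5 bp in each of the 16 libraries, the second at 292.5 to 307.5 bp and the third at 457.5 to 477.5 bp. The fourth was found in 15 libraries and not in memory CD8+ before of animal 1. Narrow regions open in fewer libraries had groups at 122.5, 287.5 and 452.5 bp, so the spacing was not particular to members.

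Most distances were in the second group, with 58.4% of them, followed by 25.2% in the third, 11.6% in the first and 4.86% in the fourth. A peak had both edges in the same group in 42.3% of cases, mostly the second (34.1%), and in groups that differed by 1 step in 44.2%. Edges rarely held still across libraries. The same pair of groups in all 16 libraries was found for 81 members (1.91%). Another 1864 (44.0%) had edges that moved, but by at most 1 step a side. The widest peak of a member was a median of 1.74 times as wide as its narrowest (quartiles 1.5 and 2.07). The first group also had a sharp outer edge. Counts per bp fell from 276 at 148 bp and 223 at 149 bp to 85 at 150 bp and 37 at 151 bp, and narrow regions open in fewer libraries fell from 573 at 148 bp to 83 at 151 bp. The cause was not tested.

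**Figure D2:**
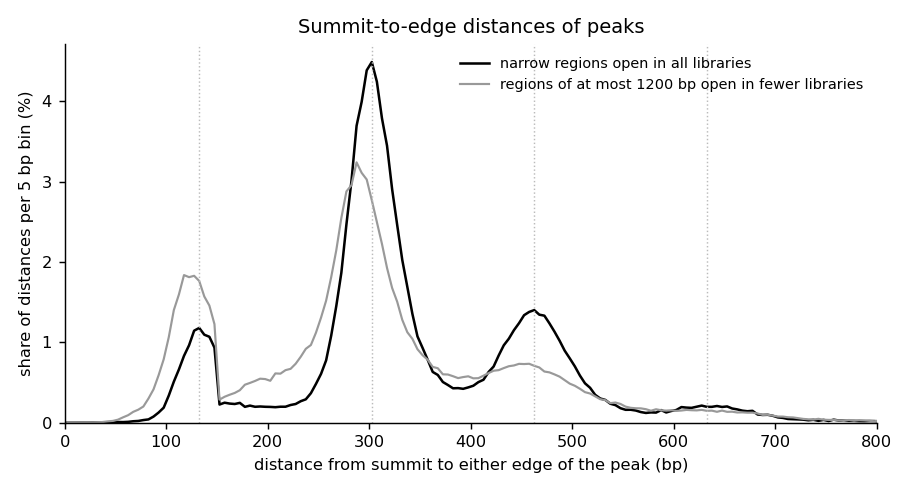
Share of summit-to-edge distances (%, per 5 bp bin) against distance in bp, for the peaks of the 4239 narrow regions open in all libraries (black) and of narrow regions open in fewer libraries (grey). The black curve has humps near 132.5, 302.5, 462.5 and 632.5 bp and a drop just past 149 bp.

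Summits stayed almost in place. The distance between the outermost summits over 16 libraries was a median of 33 bp (quartiles 23 and 50 bp), and it was at most 50 bp in 3181 members (75%) and at most 100 bp in 3740 (88.2%). The wider regions had a median of 185 bp, with 26.9% at most 50 bp, and they offer more room for a summit to move. Between a pair of libraries the summits of members were a median of 7.5 to 7.75 bp apart, whichever of time, state, lineage or animal set the pair apart. From 5.56% (lineage) to 5.87% (state) of summits were over 50 bp apart in such pairs. Summits were not at the centre of their peaks, with a median distance of 61 bp to the midpoint.

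The steadiest summit was at chr9:63861258-63862413, where 14 of the 16 libraries had the same base and naive CD4+ of animal 1 after and animal 2 before were 1 bp further. Its peak width ranged over the same libraries from 439 to 1156 bp, so its edges moved while its summit did not. At chr9:128443432-128444554 and chr13:2184081-2184910 all summits fell within 2 bp. The spread over members had a second, smaller hump. Outermost summits were over 150 and up to 200 bp apart in 1.25% of members, then 2.83% of members between 200 and 250 bp, 2.62% between 250 and 300 bp and 0.731% between 300 and 400 bp. In all, 313 members had summits over 200 bp apart, and 51 had them over 400 bp apart. The largest spread was 765 bp at chr1:107349550-107350744, where 13 libraries lay 182 to 222 bp from the leftmost summit. That summit was in memory CD4+ before of animal 1, and both memory CD8+ libraries of animal 2 were further right, at 765 bp before and 427 bp after. At chr14:573211-574250 (631 bp) a single library, naive CD4+ before of animal 2, stood apart from 15 that lay 552 to 631 bp from it. At chr7:83780598-83781789 (713 bp) the summits of 16 libraries lay at several places between 0 and 713 bp.

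**Figure D3:**
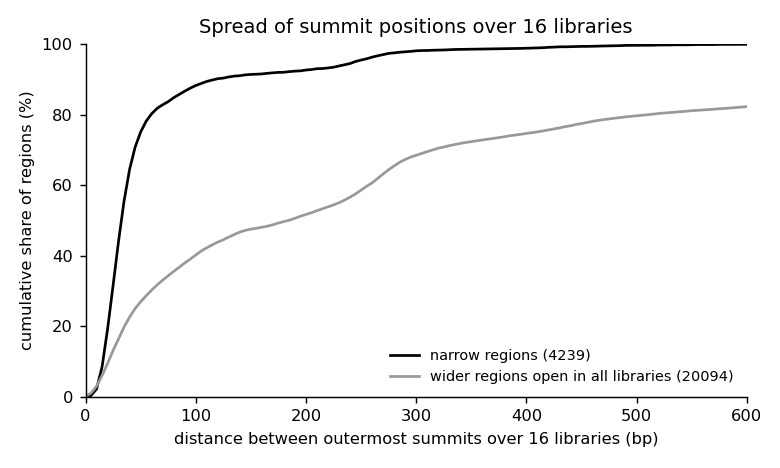
Cumulative share of regions (%) against the distance in bp between the outermost summits over 16 libraries, for narrow regions (black) and wider regions open in all libraries (grey). The narrow regions reach 75% at 50 bp, where the wider ones are at 26.9%, and the black curve rises again between 200 and 300 bp.

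To compare populations, the 24333 regions open in all libraries were ranked in each library by the area score of their best peak, from 0 for the weakest to 100 for the strongest. The ranked set is the same in every library, which list percentiles are not. The rank was compared with limma over all 24333 regions, with the 8 groups as means, 8 residual degrees of freedom and two-sided p-values adjusted by Benjamini-Hochberg over all of these regions, and a region was called at an adjusted p under 0.05. The 8 libraries on a side come from 2 animals, with 1 library per animal in each group. The p-values thus measure the spread between these 2 animals within groups. That difference between animals correlated between all 28 pairs of groups (0.257 to 0.549), so the residual degrees of freedom are not independent. A rank is relative to the other regions open in all libraries. The direction of calls can change with the choice of scale, and both directions are given below where it does. On scales other than the rank the counts are for members alone. Without a share of all regions tested beside them, they cannot show what is particular to members. Between pairs of libraries the median difference in a member's rank was 2.94 ± 0.312 points for time (SD, n = 8 pairs), 3.35 ± 0.543 for animal, 3.64 ± 0.372 for lineage and 3.98 ± 0.634 for state. The pairs share libraries, and no test was made of these 4 values.

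Memory and naive cells differed in 1208 members (28.5%), and 36.2% of all regions tested were called. The rank was higher in memory cells in 471 members (11.1%, against 16.5% of all regions tested) and lower in 737 (17.4%, against 19.7%). The median difference was 6.54 points among the former and 6.78 among the latter, and the largest were 27.3 and 27.1. Memory and naive libraries did not overlap at all in 159 members (3.75%, against 8.05% of all regions tested). They were higher in memory in 54 of them (4.03% of all regions tested were) and lower in 105 (4.02%). Area grows with width, so a rank difference need not be one in signal per base. Mean peak width was larger in memory cells in 467 of the 471 members called higher there and in 88 of the 737 called lower. Area per base ranked higher in memory cells in 448 and 30 of them, and by that rank 436 members were called. These were not counted over all called regions. Direction depended on the scale. With the percentile among all peaks of a list in place of the rank, 544 members were higher in memory and 496 lower. Under all 5 scales compared (rank, list percentile, log2 area score centred on the regions open in all libraries, log2 area score centred on the narrow regions, and logit of the rank) 8.70% of all members kept the call as higher and 11.0% of all members kept it as lower. Called members within 50 kb of each other had the same direction in 69 of 82 neighbouring pairs. This was not counted over all called regions, so it cannot be read as particular to members.

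The member that differed most was chr19:6423828-6424969, whose percentiles in the 8 memory libraries were all between 62.8 and 65.5 (median 63.7). The 8 naive libraries ran from 15.6 over a median of 36.1 to 53.7, and all lay below the memory libraries. The rank difference was 27.3 ± 1.08 points (SE, adjusted p = 6.23e-07, limma), and all 8 pairs of the same lineage, time and animal went the same way. At chr1:107527730-107528859 memory libraries lay between 48.8 and 61.9 (median 53.4) and naive ones between 12.3 and 37.8 (median 23.6), a difference of 26.0 ± 2.78 points. At chr8:115702341-115703478 they were 55.0 to 61.2 against 24.2 to 39.9, and at chr7:122241947-122243102 they were 43.6 to 59.1 against 10.7 to 38.3. None of these 4 regions had overlapping groups. At chr11:20944163-20945288 the ranges overlapped (43.1 to 62.2 against 11.1 to 46.7), with a difference of 20.6 ± 2.74 points that held in 8 of 8 pairs.

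The reverse was strongest at chr15:16827085-16828263. Its naive libraries lay between 50.1 and 58.8 (median 55.4), and its memory libraries ran from 16.9 over a median of 25 to 38.4, with no overlap and a rank difference of -27.1 ± 1.37 points (adjusted p = 1.67e-06, limma). The peak at this region also narrowed, from a median of 988 bp in naive libraries to 616 bp in memory libraries. At chr11:121840117-121841222 the difference was -23.8 ± 1.20 points, and at chr11:51419227-51420256 it was -24.0 ± 1.99, where memory libraries ranged as low as 4.6 and as high as 46.3. The values at chr4:142829180-142830329 (-23.4 ± 2.68) and chr4:126109934-126111048 (-22.1 ± 2.55) complete the first 5. In each of these 5 regions every memory library ranked below every naive library in rank, in both animals. The 10 regions named for state were picked for the largest differences with the same sign in both animals. Agreement of the animals thus follows from the choice, and the separation largely does. All 10 regions kept their call under all 5 scales.

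**Figure D4:**
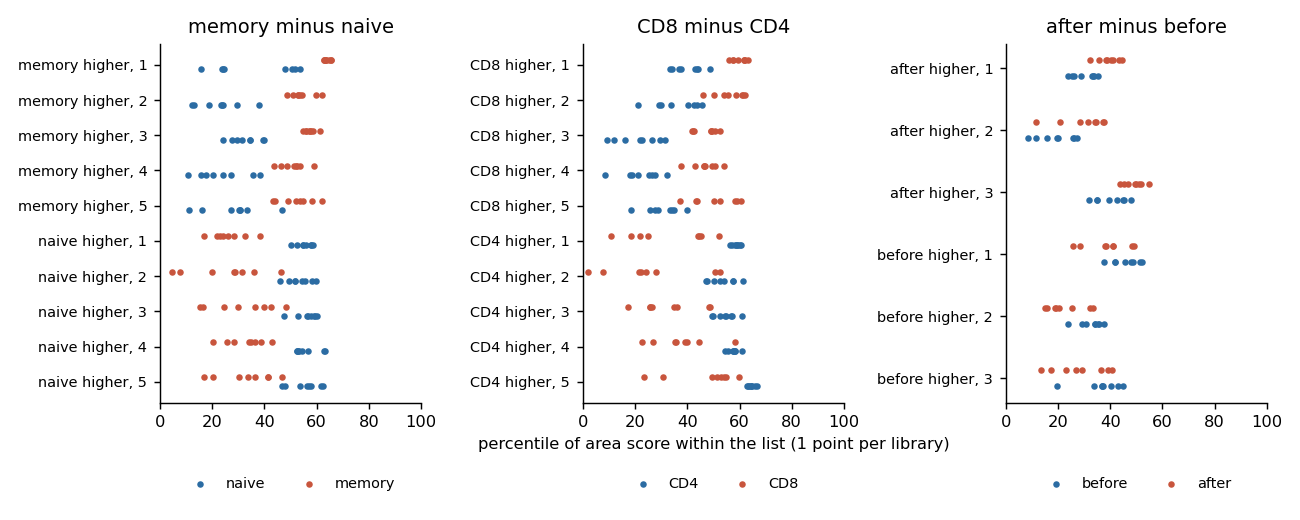
Percentile of the area score within the list in each library (1 point per library) for the 10 members with the largest differences between memory and naive cells and the 10 with the largest between CD8+ and CD4+ cells, and in the last panel for the 6 that ranked first between after and before, none of which passed the test. Blue points are naive, CD4+ or before libraries, and red points memory, CD8+ or after libraries. The first row of the state panel, chr19:6423828-6424969, has its 8 memory libraries between 62.8 and 65.5 and its 8 naive libraries between 15.6 and 53.7.

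CD8+ and CD4+ cells differed in 764 members (18.0%), where 24.4% of all regions tested were called. The rank was higher in CD8+ cells in 485 (11.4%, against 12.3% of all regions tested) and lower in 279 (6.58%, against 12% of all). The 2 sides did not overlap in 72 members (1.70%, against 3.74% of all regions tested). They were higher in CD8+ cells in 46 (1.95% of all regions tested were) and lower in 26 (1.79%). Mean peak width was larger in CD8+ cells in 397 of the 485 members called higher there and in 1 of the 279 called lower. Area per base ranked higher in CD8+ cells in 456 and 12 of them, again not counted over all called regions. The direction of the calls for lineage was the most dependent on scale. By list percentile 165 members were higher in CD8+ cells and 512 lower, and by log2 area score centred on the regions open in all libraries the numbers were 323 and 358. Centred on the narrow regions they were 346 and 368, and by rank of area per base 104 of 220 called members were higher. The median member moved by 0.801 points on the rank scale and by -1.68 on the percentile scale, while the median of all regions tested moved by 0.344 and -0.467. Under all 5 scales 160 members kept their call as higher in CD8+ cells and 220 as lower, with no such count over all regions tested. Neighbouring called members had the same direction in 35 of 43 pairs, which was likewise not counted over all called regions.

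Of members higher in CD8+ cells the largest difference was at chr2:19884990-19886151, with percentiles of 55.9 to 63.3 (median 60.4) in CD8+ libraries and 33.3 to 48.8 (median 40.2) in CD4+ libraries. Its rank difference was 23.4 ± 1.59 points (adjusted p = 1.07e-05, limma), without overlap. At chr17:80749631-80750760 CD8+ libraries lay between 41.8 and 52.5 and CD4+ libraries between 9.08 and 31.3. All 16 summits there lay within 16 bp, so the area score differed while the summit hardly moved. The others were chr3:157545548-157546667 (22.5 ± 1.39 points), chr4:136863350-136864478 (21.2 ± 1.77) and chr13:46461063-46462135 (21.1 ± 2.05). At the last of these the summits of the 16 libraries were up to 428 bp apart.

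Of members lower in CD8+ cells the largest difference was at chr1:148230481-148231473, where CD4+ libraries were close together, from 56.5 to 60.7 (median 58.8). Its memory CD8+ libraries were at 10.9 and 25.1 before and 18.3 and 22.0 after in animals 1 and 2, and its naive CD8+ libraries at 44.7 and 44.2 before and 45.2 and 52.3 after. All CD8+ libraries lay below all CD4+ libraries, and within CD8+ cells the memory ones lay below the naive ones. The rank difference was -21.7 ± 1.26 points (adjusted p = 5.08e-06, limma). At chr17:22747192-22748355 (-17.5 ± 3.36) the groups did not overlap either, and animal 1 differed by -23.3 points and animal 2 by -11.6. At chr1:14515328-14516413 (-19.8 ± 4.29, adjusted p = 0.00823), chr11:7381336-7382475 (-18.0 ± 1.79) and chr9:134063800-134064654 (-17.8 ± 3.15) the ranks of the 2 sides overlapped. The last of these was lower in 7 of 8 pairs and the others in 8 of 8. Regions named for lineage were picked in the same way as those for state, with the same limit.

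Both differences were called in 312 members. Higher in memory and in CD8+ cells were 98 (2.31%, against 4.36% of all regions tested), and lower in both were 101 (2.38%, against 4.67%). Higher in memory and lower in CD8+ cells were 29 (0.684%, against 2.19%), and lower in memory and higher in CD8+ cells 84 (1.98%, against 2.06%). Neither was called in 2579 members (60.8%, against 52.7% of all regions tested), which is not evidence that they did not differ. By mean rank the highest population was memory CD8+ in 1421 members (33.5%), naive CD8+ in 1328 (31.3%), naive CD4+ in 887 (20.9%) and memory CD4+ in 603 (14.2%). For wider regions these shares were 28.0%, 32.7%, 21% and 18.3%. This tally was made on the rank scale alone, and the direction by lineage depended on the scale. By list percentile 165 members were called higher in CD8+ cells and 512 lower. By log2 area score centred on the regions open in all libraries 323 were higher and 358 lower.

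**Figure D5:**
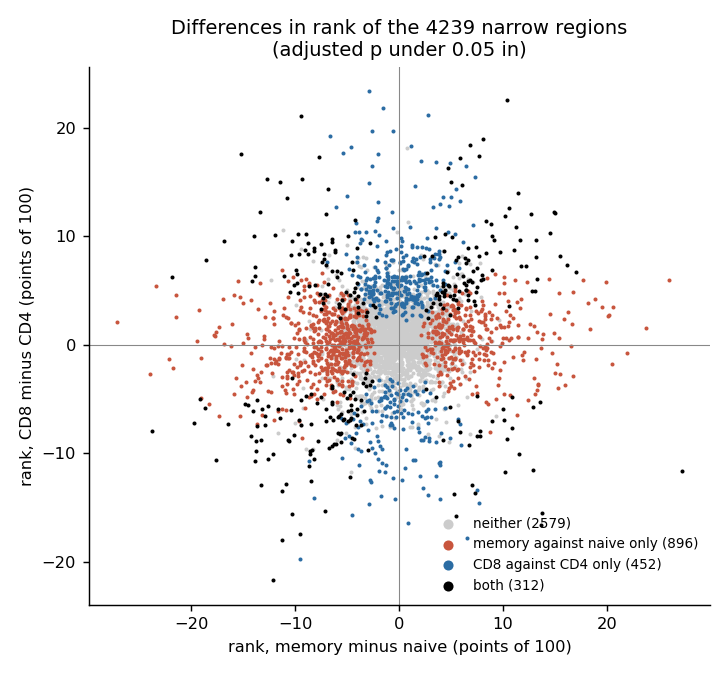
Rank difference between memory and naive cells (x axis, points of 100) against that between CD8+ and CD4+ cells (y axis) for the 4239 narrow regions, coloured by the comparison in which the adjusted p was under 0.05. Called members lie away from the centre on the axis of their comparison, 98 of them in the upper right and 101 in the lower left called in both.

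Whether the step from naive to memory differed between the lineages was tested as the difference itself. It did so in 33 members (0.778%), against 2.05% of all regions tested. The memory-minus-naive difference was larger in CD8+ cells in 11 (0.789% of all regions tested) and smaller in 22 (1.26%). With the animal as a block there were 95 (36 and 59), and without single libraries from 11 (memory CD4+ after of animal 1 left out) to 71 (memory CD8+ before of animal 1 left out). In all, 12 of the 16 libraries moved this count by over 1.5 times when left out. With log2 area scores 5 members were higher and 53 lower when centred on the regions open in all libraries, and 8 and 25 when centred on the narrow regions, and 2 and 7 members kept the call under all 5 scales.

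The largest interaction among those larger in CD8+ cells was again at chr19:6423828-6424969. Its ranks in naive CD8+ libraries were 4.59 and 4.73 before and 7.30 and 4.74 after, and in naive CD4+ libraries 27.5 and 29.0 before and 24.1 and 31.2 after. Memory libraries of both lineages lay between 41.8 and 45.4. Memory was thus above naive by 16.2 points in CD4+ cells and by 38.3 in CD8+ cells, an interaction of 22.0 ± 2.15 points (adjusted p = 0.00140, limma; 0.102 by area per base). At chr8:86944102-86945239 12 libraries ranked between 0.0760 and 4.27, close to the lowest score listed, and the memory CD8+ libraries ranked 30.4 and 22.7 before and 28.6 and 14.1 after. On several other scales the interaction there missed the threshold in limma. The adjusted p was 0.0619 by list percentile and 0.0580 by log2 area score centred on the regions open in all libraries. It was 0.218 by logit of the rank and 0.291 by area per base. This interaction of 21.3 ± 3.89 points (adjusted p = 0.0265) missed the threshold without any of 11 single libraries, with adjusted p up to 0.0690. At chr15:76007213-76008334 (16.8 ± 3.28, adjusted p = 0.0333) 13 single libraries did so, with adjusted p up to 0.0890.

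In the other direction, chr12:46572322-46573329 ranked 26.5 to 33.9 in memory CD4+ libraries and 4.89 to 13.7 in memory CD8+ libraries, with naive libraries of both lineages in between or overlapping at 15.7 to 27.2. Memory was above naive by 9.01 points in CD4+ cells and below it by -14.9 in CD8+ cells, an interaction of -24.0 ± 3.72 points (adjusted p = 0.0128, limma; 0.0816 by area per base). At chr13:96950019-96951071 the memory CD4+ libraries (18.9 to 23.4) stood above all others (1.19 to 9.75), an interaction of -19.2 ± 2.79 points (adjusted p = 0.00970). That call was missed by list percentile (0.121), by logit of the rank (0.135) and by rank of area per base (0.270). The same scales missed the call at chr15:76007213-76008334 (adjusted p of 0.115, 0.0797 and 0.220 in limma). Log2 area score missed it too, centred on the regions open in all libraries (0.0566) or on the narrow regions (0.0562). List percentile, logit and area per base also missed the call at chr15:8750331-8751428 (0.0784, 0.0504 and 0.270). So did log2 area score centred on the narrow regions (0.0599). Where peaks had to cover at least 50% of the region, both calls were missed (0.0913 each). At chr15:8750331-8751428 the value was -20.5 ± 4.06 (adjusted p = 0.0351), and 13 single libraries ended the call when left out, with adjusted p up to 0.0928.

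No member passed the threshold for time, where 6 of all regions tested (0.0247%) did. Unadjusted p-values were under 0.05 in 513 members (12.1%), against 9.82% of all regions tested. Within naive CD4+, memory CD4+, naive CD8+ and memory CD8+ cells no member passed either, where 0.0534%, 0.0205%, 0.00411% and 0.00822% of all regions did. There, 226, 199, 225 and 267 members had an unadjusted p under 0.05, which is 5.33%, 4.69%, 5.31% and 6.30% of members against 4.92%, 4.59%, 2.91% and 4.78% of all regions tested. These counts of 0 in limma were reached with 2 animals. Leaving out memory CD8+ before of animal 2 gave 7 members in memory CD8+ cells and 1 over all populations, and by logit of the rank there were 5 and 2. Ranks of all 8 libraries after lay above those of all 8 before in 1 member (0.0236%, against 0.00822% of all regions tested). This was chr7:161721155-161722271, named after its values were seen, with ranks of 3.98 to 7.83 before (median 6.30) and 9.89 to 15.8 after (median 12.4). Its difference was 6.23 points, and the adjusted p was 0.145 in limma.

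The smallest p among members belonged to chr15:6369923-6370822. Its percentiles were 23.7 to 35.4 before (median 30.8) and 32.1 to 44.6 after (median 39.5), higher after in 8 of 8 pairs, with a rank difference of 6.76 ± 0.966 points and an adjusted p of 0.0851 in limma. The next with higher values after were chr1:61015831-61016591 (5.29 ± 0.800 points) and chr14:12179934-12180720 (8.28 ± 1.26), both with an adjusted p of 0.102 in limma. With lower values after were chr1:93358628-93359363 (-7.06 ± 1.11, adjusted p = 0.118), chr7:54722791-54723738 (-6.62 ± 1.10, 0.140) and chr20:22208840-22209960 (-6.43 ± 1.15, 0.157). Of these 6 regions chr1:93358628-93359363 passed by logit of the rank (0.0284), by rank of area per base (0.0449), by log2 area score centred on the narrow regions (0.0343) and where peaks had to cover at least 50% of the region (0.0415).

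Taken by population, the smallest adjusted p was 0.298 in limma, at chr8:61521906-61523031 in memory CD8+ cells, with percentiles of 41.6 and 44.7 before and 27.6 and 28.9 after. In naive CD4+ cells it was 0.380 at chr7:64253057-64254069, with 34.0 and 34.7 before and 17.6 and 20.4 after. In memory CD4+ cells it was 0.737, at chr1:93358628-93359363, with 37.8 and 41.7 before and 25.5 and 28.5 after, and by logit of the rank this region passed there (adjusted p = 0.00987). In naive CD8+ cells it was 1.00 at chr18:47148498-47149400, with 20.9 and 35.4 before and 41.9 and 44.3 after. By rank none of these passed. The ranges before and after did not overlap in any of the 4. Each was picked by its smallest adjusted p with 2 libraries on a side, so this separation follows largely from the choice.

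Over the members as a set, before and after are compared as a description over 8 pairs of libraries of the same animal and population. Their median percentile was 33.6 before and 35.4 after, a change of 1.79 ± 1.56 (SD, n = 8) that was upward in 7 of 8 pairs and was 2.72 in animal 1 and 0.867 in animal 2. For the wider regions the change was 0.163 ± 0.799, upward in 4 of 8. The median rank of members changed by 0.643 ± 0.710 (0.266 in animal 1 and 1.02 in animal 2), and the area per base by 0.0846 ± 0.0598 (0.101 and 0.0685), each upward in 7 of 8 pairs. The rise in area per base was not particular to members. Its mean went from 0.969 before to 1.05 after in members and from 1.59 to 1.71 in the wider regions. Fewer edges of the members' peaks lay close to the summit. The share of distances in the first group went from 14.3% to 8.90%, a change of -5.41 ± 4.76 points that was downward in 7 of 8 pairs. It was -5.20 in animal 1 and -5.62 in animal 2, and -4.07 without the pair of largest change. The share was highest in memory CD8+ before of animal 2, at 23.6%. Median width changed by 17.5 ± 43.9 bp, upward in 5 of 8 pairs, by 35.25 bp in animal 1 and -0.25 bp in animal 2, and by 4.14 bp without the pair of largest change. For the wider regions it changed by -73.6 ± 152 bp, downward in 7 of 8 pairs. List length moved too, from a mean of 40000 peaks before to 40266 after, and its part in these changes was not tested.

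Peak widths also differed between states and between lineages. On log2 width centred on each library's median, memory and naive cells differed in 416 members (9.81%), against 17.8% of all regions tested. They were wider in memory in 120 (8.75% of all regions tested were) and narrower in 296 (9.08%). CD8+ and CD4+ cells differed in 179 (4.22%, against 9.32%), with 73 wider in CD8+ cells (4.1% of all regions tested were) and 106 narrower (5.22%). Centring set the direction, since without it 248 members were wider in memory and 134 narrower, and 34 were wider in CD8+ cells and 192 narrower. Without memory CD8+ before of animal 1 the counts were 751 for state and 367 for lineage. Without memory CD4+ after of animal 2 the share for lineage was 2.71% of members. The limit on merged width also limits how far a member's width can differ.

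Among widths the largest change by state was at chr6:14504819-14505792. Its 8 naive libraries had peaks of 671 to 969 bp (median 934) and its 8 memory libraries peaks of 337 to 646 bp (median 406), with no overlap and a log2 difference of -1.13 ± 0.12 (adjusted p = 0.000117, limma). All 16 summits of this region lay within 41 bp. In the opposite direction chr6:69052909-69053814 had 507 to 887 bp in memory (median 845) and 268 to 584 bp in naive cells (median 293), a log2 difference of 1.05 ± 0.22 (adjusted p = 0.00759). The other named regions for state were chr12:110392380-110393034 and chr11:20944163-20945288, wider in memory by 0.69 and 0.73 on the log2 scale, and chr12:106907218-106908390 and chr15:16827085-16828263, changed by -1.01 and -0.78. For lineage, chr4:52996484-52997508 had 394 to 684 bp in CD8+ libraries and 700 to 1023 bp in CD4+ libraries, with no overlap and a log2 difference of -0.72 ± 0.12 (adjusted p = 0.00381). Others were narrower in CD8+ cells at chr10:99329325-99330393 (-0.77) and chr19:44608211-44609346 (-0.67), and wider at chr9:13600526-13601554 (0.67), chr4:136863350-136864478 (0.64) and chr2:30878073-30879049 (0.61). The call at chr19:44608211-44609346 (adjusted p = 0.0451, limma) was lost without any of 14 single libraries, with adjusted p up to 0.103. That at chr9:13600526-13601554 was lost without any of 4 (up to 0.0536) and without centring (0.0505).

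For time no width passed in limma, in members or in all regions tested (0%), while 645 members (15.2%) had an unadjusted p under 0.05, against 7.27% of all regions. Widths were centred on a set made up mostly of wider regions, whose median width fell by 73.6 bp after treatment. After centring, the median log2 difference was 0.0989 in members and 0.0225 in all regions. The part of centring in the larger share was not tested, so that share cannot be read as a widening of members. Leaving out memory CD8+ before of animal 1 gave 66 members, and leaving out naive CD8+ before of animal 2 gave 2. The smallest p was at chr11:124682856-124683513, with peaks of 397 to 602 bp before (median 423) and 567 to 641 bp after (median 608), wider in 7 of 8 pairs, with an adjusted p of 0.252 in limma. At chr6:139536155-139537048 the medians were 373 and 579 bp (adjusted p = 0.271). Of those narrower after, chr1:123235809-123236751 had medians of 766 and 588 bp (adjusted p = 0.413) and chr4:54973499-54974404 had 762 and 600 bp (adjusted p = 0.471).

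Summit positions passed the threshold in few members, 8 for state (0.189%, against 1.5% of all regions tested), 14 for lineage (0.330%, against 1.32%) and 6 for time (0.142%, against 0.764%). These were 17 members in all, and in 8 of them the summits were over 200 bp apart. A summit that jumps between 2 places is poorly described by a mean, and the counts were unsteady. They ran from 11 to 36, from 14 to 41 and from 9 to 38 with single libraries left out, the highest each time without memory CD8+ before of animal 1.

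The region chr10:41565347-41566439 had 2 summit places and was called for lineage, for state and for time. All 8 CD8+ libraries used the left place, between -30 and 2 bp from the median summit. All 4 memory CD4+ libraries used the right place, at 225 and 219 bp before and 224 and 228 bp after. Naive CD4+ libraries were at the right place before, at 222 and 224 bp, and at the left place after, at -2 and -1 bp, in animals 1 and 2. The difference between CD8+ and CD4+ cells was -173 ± 3.78 bp (adjusted p = 7.82e-09, limma). Measured by the midpoint of the peak in place of the summit, this region missed the threshold (adjusted p = 0.869).

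At chr4:11571969-11573166 CD8+ libraries lay at 4 to 258 bp and CD4+ libraries at -231 to -4 bp, without overlap, a difference of 231 ± 40.4 bp (adjusted p = 0.0308, limma). It missed the threshold with the animal as a block (adjusted p = 0.0595) and without any of 11 single libraries (up to 0.0665). At chr15:45527857-45528995 summits again used 2 places, to the left (at most -92 bp) and to the right (at least 92 bp) of the median. All naive CD4+ libraries were at the left one and all memory CD8+ libraries at the right one. Memory CD4+ and naive CD8+ libraries were at the left before and at the right after, in both animals. This region was called for state (108 ± 5.54 bp), lineage (adjusted p = 3.12e-06) and time (107 ± 5.54 bp).

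For time the largest shift was at chr13:34089302-34090278. All 8 libraries before had their summit between -1.5 and 17.5 bp of the median place, and 7 of the 8 after had it between -233.5 and -190.5 bp, while memory CD8+ after of animal 1 was at 3.5 bp. The difference was -195 ± 28.7 bp (adjusted p = 0.0148, limma). The call was lost by midpoint of the peak (adjusted p = 0.998) and without both naive CD8+ libraries of animal 1 (0.0609). The remaining members named for summits were chr2:951603-952687, chr3:176554747-176555847, chr5:110509401-110510581, chrX:49385869-49387064 and chr4:100505414-100506297. At chr2:951603-952687 the 2 naive CD8+ libraries after treatment were at 232 and 197 bp, and the other 14 libraries lay between -13 and 19 bp. At chr3:176554747-176555847 the 2 memory CD4+ libraries after treatment were at 210 and 216 bp, and the other 14 lay between -19 and 24 bp. At chrX:49385869-49387064 memory libraries had a median of -324 bp and naive ones of 6 bp (adjusted p = 0.0362, limma). That call was lost without any of 10 single libraries, with adjusted p up to 0.0734. At chr5:110509401-110510581 the 8 CD8+ libraries lay between -9 and 5 bp, and 5 of the 8 CD4+ libraries were at 251 to 263 bp (adjusted p = 0.0480, limma). That call was lost with the animal as a block (0.0657) and without any of 13 single libraries, with adjusted p up to 0.0965. At chr4:100505414-100506297 the shift was small, -17.9 ± 2.91 bp for state. By midpoint of the peak no member named for summits passed in limma.

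The 2 animals also differed, in 534 members (12.6%, against 14.6% of all regions tested), 229 higher in animal 2 (7.12% of all regions tested were) and 305 lower (7.49%). By list percentile these were 276 and 176. The groups did not overlap in 50 members, and in 1.88% of all regions tested. The 2 members named here had the smallest adjusted p for this comparison. The first was the strongest member of all, chr16:54369612-54370791, with percentiles of 78.6 to 88.1 (median 82.3) in animal 1 and 49.1 to 66.3 (median 57.2) in animal 2. Its rank was lower in animal 2 by -36.3 ± 1.29 points (adjusted p = 1.14e-06, limma; 0.129 by area per base), more than any member differed by state or lineage. At chr20:32713608-32714783 animal 1 lay between 50.6 and 60.6 and animal 2 between 9.84 and 40.4, a difference of -29.9 ± 1.42 points. Both concern these 2 animals alone. No call for state, lineage or animal was made in 2182 members (51.5%), which is not evidence that they did not differ. The share over all regions tested was not computed. In each of these comparisons a larger share of all regions than of members was called. Members were chosen by width, and area grows with width, so they lay low on the rank scale. Their median rank was 12.3, against 58.3 for the wider regions. The part of this in the smaller share was not tested, so that share cannot be read as a trait of members.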

How the data were processed

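ATAC-seq peak lists of 16 libraries were used, on rheMac10; cutadapt 1.18, Bowtie2 2.3.4.1 and Genrich 0.6 are named in the submitters' processing notes. How they were set, including duplicates and the transposase offset, is not given in the sources at hand, nor are read counts. Lists were deposited per library. The authors' deposited area score and -log10 p belong to each list and served to rank or filter peaks, and the deposited start, end and summit gave positions. File names number animal 2 differently by population; the titles were followed.

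Peaks were merged (Python 3.11.15, pandas 2.3.3, numpy 2.4.6, scipy 1.17.1, matplotlib 3.10.9), and the best-scoring peak of a region gave its rank and summit. Fits used limma 3.58.1 in R 4.3.3, tested on simulated data, with 15 comparisons. The animals pair the libraries by title, and the difference between animals correlated between all 28 pairs of groups (0.257 to 0.549). Distances to edges were binned by 5 bp and smoothed (SD 10 bp). Named regions were, per comparison and direction, the 5 (rank) or 3 (interaction, width, summit) called members of largest difference. For rank these had the same sign in both animals. Where none passed, the 2 or 3 of smallest p were named. The extremes of rank, width and summit spread and the 2 of smallest adjusted p between animals were added. Members and lists were chosen with earlier results of these data known. Planned marker lists, gene starts and motifs were not run, since no rheMac10 annotation was used here.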

Additional observations from a re-analysis of the deposited data

Results flagged for a closer look

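Groups of 4 to 8 libraries were checked for a library far from the rest by Dixon's criterion, 76 groups in all, of which chance alone would mark about 1 in 20. It marked 2. The median area score per base of members was 0.946 in memory CD8+ before of animal 2, and the other 3 memory CD8+ libraries lay between 0.985 and 0.991. The percentile of chr20:22208840-22209960 was 19.6 in naive CD8+ before of animal 1, the library with the shortest list, and 33.8 to 44.9 in the other 7 libraries before treatment.

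The step from naive to memory differed between CD8+ and CD4+ cells in 33 members by limma's interaction test. The 6 named among them were chr19:6423828-6424969 (22.0 points of rank), chr8:86944102-86945239 (21.3), chr15:76007213-76008334 (16.8), chr12:46572322-46573329 (-24.0), chr15:8750331-8751428 (-20.5) and chr13:96950019-96951071 (-19.2). At chr8:86944102-86945239 all libraries but those of memory CD8+ cells ranked near the lowest score listed.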

How the results depend on the processing

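Of the values for the comparisons and member counts under other settings, 339 stayed near the main value and the others moved. Depth was unknown, and the score at which a list ends sets which regions can be members. The 4239 members became 4153 with a summit -log10 p of at least 3, and 3304 with lists of equal length. A limit of 1000 bp gave 2750 members, 1500 bp gave 6446 and coverage of 50% gave 2780. Numbers called are in the order rank by state, rank by lineage, interaction, then summit by state, lineage and time, followed by shares of members for animal, width by state and width by lineage. At 1000 bp they were 701, 423, 13, 2, 2 and 1, with 10.7%, 7.82% and 2.73%, and at 1500 bp 2090, 1419, 70, 32, 31 and 17, with 15.1%, 12.7% and 6.38%. At 50% coverage they were 632, 374 and 9, 5 and 6 for summits by state and lineage, 1 for rank by time, and 10.3%, 7.48% and 2.23%. These settings change the number of members, and the cause was not tested for the following. By rank of area per base state gave 436, lineage 220, time 2, interaction 3 and animal 2.78% of members. With lists of equal length widths gave 8.32% and 3.15%. List percentile gave 19 interactions and log2 area score 58, centring on the narrow regions 1 for time, and that centring shifted the median interaction of all regions by 0.12 (log2). Logit of the rank gave 2 for time, and 1, 1 and 5 for naive CD4+, memory CD4+ and memory CD8+ cells. Midpoints gave 3 summit calls by lineage and 0 by time, and reversed 6 named values: for state -23.4 bp at chr10:41565347-41566439, 21 at chrX:49385869-49387064 and 23.1 at chr4:100505414-100506297, for lineage -11.3 at chr2:951603-952687 and 18.6 at chr3:176554747-176555847, for time 16.7 at chr10:41565347-41566439. Without both naive CD8+ libraries of animal 1, a setting chosen after seeing the data like the trend in moderation and the centring on narrow regions, animal gave 7.20%, width by lineage 2.43% and summits 29, 30 and 19.

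With the animal as a replicate block, the paired fit, calls were 1500 by state, 1039 by lineage and 95 interactions (33 without it). It changed the count by over 1.5 times for no other comparison. Leaving out each library gave 992 to 1245 by state, 596 to 788 by lineage, 11 to 71 interactions, 9.20% to 11.7% by animal (12.6% with all libraries), 6.82% to 17.7% and 2.71% to 8.66% for widths, 0% to 1.56% for width by time, and 11 to 36, 14 to 41 and 9 to 38 for summits. For time it gave 0 to 1 over all and in naive CD4+ cells, 0 to 7 in memory CD8+ cells and 0 in the other 2 populations; the group left with 1 library is then assumed to vary like the others. Named called regions kept their call in 761 values for rank (61 lost it), 262 for width (21 lost it) and 363 for summits (51 lost it and 6 reversed). Of planned settings, those needing gene positions were not run.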
